A study of Homo sapiens with 6 samples.

Results

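The genes described here encode the protein import machinery of mitochondria, whose symbols start with TIMM or TOMM, and the SLC25 carriers, whose symbols are SLC25A and a number. Symbols with a hyphen (antisense and readthrough genes) and pseudogenes were left out. Of the 15651 genes in the table, 65 met this rule, 24 of them import genes and 41 carriers. All 65 reached 4 normalized counts in 3 or more libraries and so passed the filter on low values. RNA-seq was carried out in MDA-MB-231, an established human TNBC cell line, after treatment with the PDE7A inhibitor BRL-50481 (3 libraries) or with its vehicle DMSO (3 libraries). The treatment text of the labels and the paper give 50 μM for 72 h, whereas a treatment tag on the treated samples has 5 μM for 48 h. The labels describe selection of mRNA with oligo-dT beads, and the series text depletion of ribosomal RNA. No genetic change separates the groups, all libraries come from this cell line, and a lower level in every cell cannot be told apart from a smaller share of cells that express a gene.

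Nearly all mitochondrial proteins are made in the cytosol and enter through the TOM complex of the outer membrane. Proteins with a cleavable N-terminal signal then pass the TIM23 complex of the inner membrane, while carriers are handed by small TIM chaperones of the intermembrane space to the TIM22 complex, which inserts them into the inner membrane. The SLC25 carriers are therefore clients of the import machinery, and they exchange nucleotides, phosphate, carboxylic acids, amino acids and cofactors between the cytosol and the matrix.

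Values are normalized counts, which are reads per gene after division by the size factor the authors computed for that library. In all 6 libraries, 100% of the values fell on whole multiples of 1 step (tolerance 0.001). Counting that step as 1 read gives 30750573 to 33446984 reads on the listed genes per library. These are fewer than the sequenced reads that the paper gives per sample. Replicates differed by more than counting noise (chi-square per degree of freedom 3.99 to 22.1 within DMSO and 2.63 to 3.53 within BRL-50481), with DMSO replicate 1 farthest from the others. Markers of the line were present in every library, with 56075 to 88612 normalized counts of VIM and 30982 to 43852 of CD44. Both were higher after treatment, since no vehicle library exceeded 60934 for VIM or 31805 for CD44. The lowest treated values were 86701 and 43324. KRT8 was higher as well (5772 to 7112 in DMSO, 7608 to 7928 in BRL-50481). KRT18 was lower (13838 to 16072 in DMSO, 11820 to 12616 in BRL-50481). The progesterone receptor gene PGR reached at most 7.75, and ESR1, PTPRC, CD3E, DCN and ALB were not listed. EPCAM was present throughout but lower after treatment (758 to 773 in DMSO, 674 to 695 in BRL-50481). CDH1 stayed at or below 48.6 with vehicle and at or above 93.1 with the inhibitor. The endothelial marker PECAM1 had 325 to 396 normalized counts in DMSO and 460.4 to 537 in BRL-50481, and its part in the results was not tested. PDE7A mRNA had 406, 405 and 409 normalized counts in DMSO and 341, 292 and 261 in BRL-50481. The groups were compared by limma on log2(normalized count + 1), which gave log2 fold changes (log2FC) with standard errors (SE), and p-values were adjusted by the Benjamini-Hochberg method over all 15246 genes tested.

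Import genes fell across the TOM, TIM23 and TIM22 pathways in BRL-50481-treated cells. Of the 24 import genes, 20 were lower, 1 was higher and 3 did not pass the threshold at an adjusted p-value under 0.05, where 29.8% of all genes tested were lower and 28.9% were higher. The median log2FC was −0.43, against 0.015 over all genes tested. Of the 41 carriers, 21 were lower, 5 were higher and 15 did not pass, with a median log2FC of −0.18. The import genes ranged from −1.0 to 0.31, and the carriers named below from −1.11 to 1.89. No test of the difference between these lists was made. The groups were fully separated in 21 import genes, 20 of them with BRL-50481 below DMSO, and in 29 carriers, 22 of them below, where 32.3% of all genes lay below and 31.9% above without overlap.

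**Figure D1:**
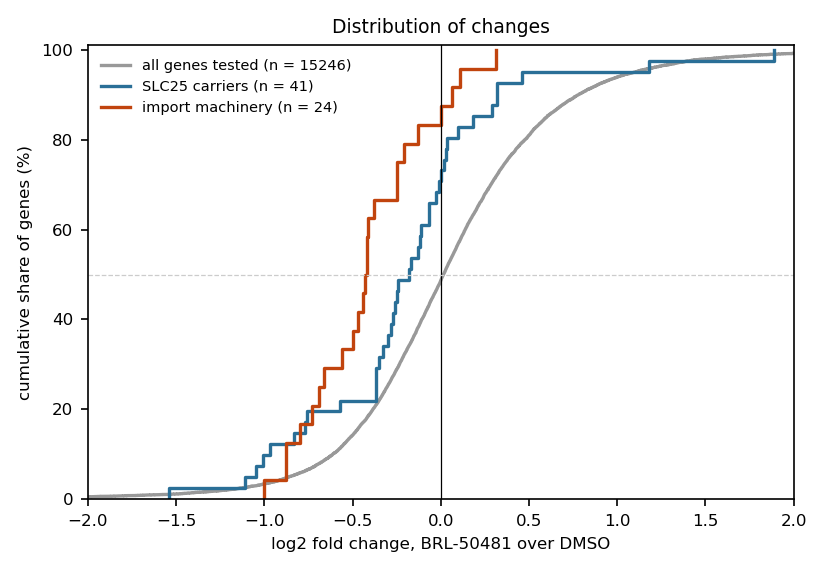
Cumulative share of genes (y axis, percent) against the log2FC of BRL-50481 over DMSO (x axis, drawn from −2 to 2) for all 15246 genes tested (grey), 41 SLC25 carriers (blue) and 24 import genes (orange). The curves cross the dashed line at 50% at their medians, which are 0.015 for all genes, −0.18 for carriers and −0.43 for import genes.

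The summed level of the lists changed in the same direction. Import genes together held 72532, 79322 and 77066 normalized counts in DMSO and 56436, 55332 and 56793 in BRL-50481. The carriers together held 86687, 93773 and 92005 in DMSO and 76280, 78247 and 76279 in BRL-50481. In both lists all 3 treated libraries were below all 3 vehicle libraries. The total over all genes was lower too, at 30956797 to 31073526 with BRL-50481 and 32547451 to 32763957 with DMSO. As a mean share of that total, import genes went from 0.234% in DMSO to 0.181% in BRL-50481, and carriers from 0.278% to 0.248%. The sums lean on a few abundant genes, since SLC25A3, SLC25A5 and SLC25A6 gave 45.9% of the carrier total in DMSO and 45.7% in BRL-50481, and TOMM20 gave 19.4% and 19.0% of the import total.

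In the outer membrane, 7 of the 8 TOM genes were lower and none was higher. TOMM20, which encodes the receptor for N-terminal signals and was the most abundant import gene by normalized count (chromosome 1 of hg38, 235109341 to 235128837), had 14826, 14707 and 14789 normalized counts in DMSO and 10848, 10511 and 10604 in BRL-50481. The groups lay far apart against their spread, with means of 14774 ± 60.5 and 10654 ± 174 (SD, n = 3 each), a log2FC of −0.47 (SE 0.0419, adjusted p = 8.28e-07). TOMM5 and TOMM6, small subunits of the pore complex, fell further. TOMM6 had 7291, 8455 and 8225 normalized counts in DMSO and 4810, 4557 and 5053 in BRL-50481, a log2FC of −0.73 (SE 0.0614, adjusted p = 5.17e-07), and its exons overlap those of another annotated gene on the same strand. TOMM5 followed with −0.69 (adjusted p = 4.82e-07), also with such an overlap, whereas the small subunit gene TOMM7 fell less (−0.38, adjusted p = 0.000387).

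TOMM40, the channel itself, had 2645, 3202 and 2842 normalized counts in DMSO and 2056, 2259 and 2081 in BRL-50481, a log2FC of −0.44 (SE 0.0703, adjusted p = 0.000137). TOMM22, the central receptor, moved by nearly the same amount (−0.43, adjusted p = 6.53e-05). TOMM70A (TOMM70 in the current nomenclature), the receptor that binds carrier precursors together with cytosolic chaperones, fell least among the TOM genes that passed. Its normalized counts were 5696, 5040 and 5315 in DMSO and 4818, 4401 and 4694 in BRL-50481, a log2FC of −0.21 (adjusted p = 0.00721), and without BRL-50481 replicate 2 it did not pass (adjusted p = 0.0504). TOMM40L, a relative of the channel gene, was the TOM gene that did not pass, with 508 ± 33.3 and 508 ± 36.7 normalized counts (SD, n = 3 each). TOMM34, a cytosolic cochaperone of precursor proteins that shares the name, went from 9447 ± 505 to 8597 ± 68.5 (SD, n = 3 each), a log2FC of −0.13 (adjusted p = 0.03) that passed in only 1 of 6 refits with a library omitted (adjusted p up to 0.109).

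**Figure D2:**
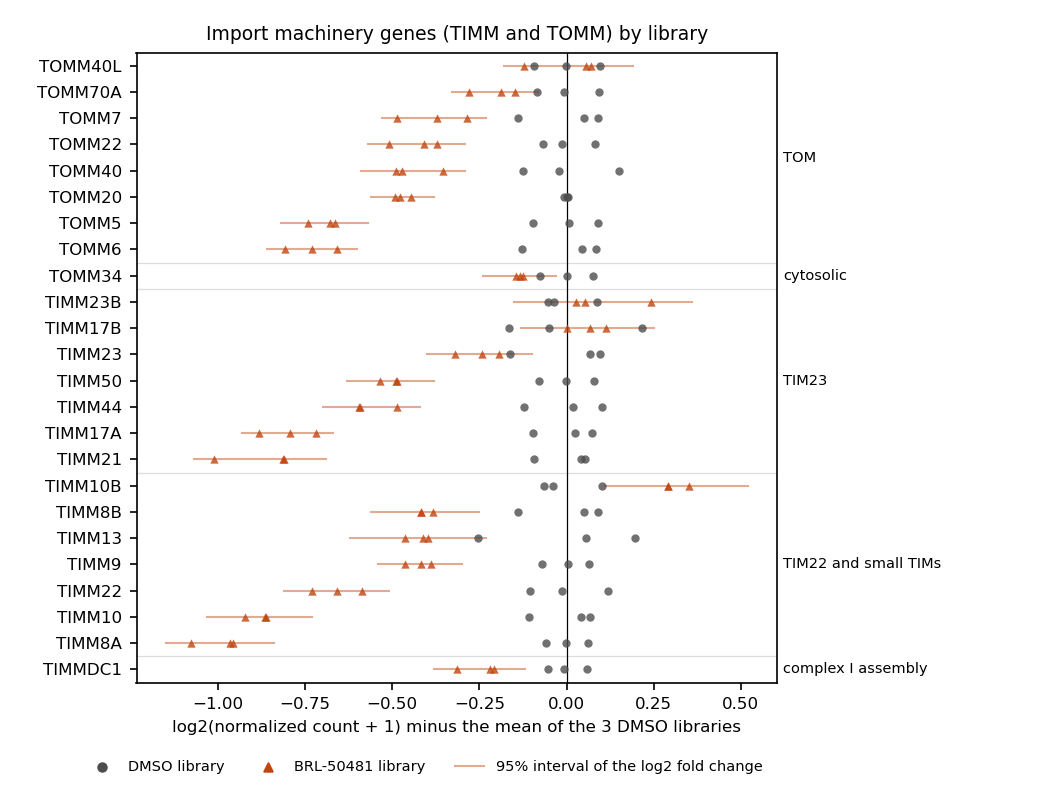
Value of each import gene in each library, as log2(normalized count + 1) minus the mean of the 3 DMSO libraries (x axis), with genes grouped by complex (y axis). Circles are DMSO libraries, triangles BRL-50481 libraries, and lines the 95% interval of the log2FC from limma. The triangles lie left of all circles in 20 genes, and TIMM10B is the gene in which they lie right of them.

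In the TIM23 complex, which carries proteins with an N-terminal signal across the inner membrane, 5 of 7 genes were lower and none was higher. TIMM17A, a channel subunit and the most abundant gene of this group (chromosome 1, 201955503 to 201970664), had 4845, 5445 and 5267 normalized counts in DMSO and 3147, 2812 and 2987 in BRL-50481. It fell by 0.80 in log2FC (SE 0.0594, adjusted p = 1.81e-07), with a range of −0.85 to −0.76 when each library was left out in turn. TIMM21, which links TIM23 to the TOM complex and the respiratory chain, had 602, 660.2 and 666 normalized counts in DMSO and 365, 366 and 318 in BRL-50481, a log2FC of −0.88 (SE 0.0867, adjusted p = 2.1e-06). TIMM44, which anchors the import motor, and TIMM50, the receptor of the complex, fell by 0.56 and 0.50 on the log2 scale (adjusted p = 8.04e-06 and 7.06e-06).

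TIMM23, the channel subunit after which the complex is named, fell less, from 2350 ± 224 to 1969 ± 86.7 normalized counts (SD, n = 3 each; log2FC −0.25, adjusted p = 0.00781). TIMM23B, its copy on the same chromosome, had 161 ± 8.93 and 174 ± 14.5 (SD, n = 3 each; log2FC 0.11, 95% interval −0.15 to 0.36, adjusted p = 0.453). Both values are uncertain, since reads of near-identical genes may be split between them or lost in counting. TIMM17B, the second form of the TIMM17 subunit, had 952, 1241 and 1031 normalized counts in DMSO and 1069, 1156 and 1119 in BRL-50481. These values overlap (log2FC 0.061, 95% interval −0.13 to 0.25, adjusted p = 0.57).

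In the carrier import route, made up of the TIM22 complex and the small TIMs, 6 of 7 genes were lower and 1 was higher. TIMM8A, the small TIM whose loss causes deafness-dystonia syndrome (chromosome X, 101345661 to 101348742), had the largest fall among the import genes. It had 941, 1023 and 979 normalized counts in DMSO and 464, 502 and 505 in BRL-50481, a log2FC of −1.0 (SE 0.0719, adjusted p = 1.34e-07). Its partner in the intermembrane space, TIMM13, had 1642, 2244 and 2033 in DMSO and 1420, 1471 and 1484 in BRL-50481, a log2FC of −0.42 (SE 0.0912, adjusted p = 0.00137). Here DMSO replicate 1 lay close to the treated libraries, and the log2FC was −0.55 to −0.33 with each library left out.

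TIMM9 and TIMM10 form the main carrier chaperone together. TIMM9, the most abundant gene of this route, had 2456, 2586 and 2695 normalized counts in DMSO and 1968, 1870 and 1929 in BRL-50481 (log2FC −0.42, SE 0.0555, adjusted p = 2.52e-05). TIMM10 (chromosome 11, 57528464 to 57530803) had 1074, 1212 and 1192 in DMSO and 637, 610.4 and 635 in BRL-50481 (log2FC −0.88, SE 0.0699, adjusted p = 3.09e-07). Both lay below DMSO in every treated library. TIMM22, the channel of the insertase, changed from a mean of 1558 ± 122 to 986 ± 49.0 normalized counts (SD, n = 3 each; log2FC −0.66, adjusted p = 4.34e-06), and TIMM8B from 1279 ± 106 to 963 ± 13.5 (SD, n = 3 each; −0.41, adjusted p = 0.000258). TIMM10B, the small TIM bound to the insertase (chromosome 11, 6481501 to 6484681), was the import gene that rose, from 240.1, 265 and 236 normalized counts in DMSO to 315, 302 and 302 in BRL-50481 (log2FC 0.31, SE 0.0944, adjusted p = 0.0122). Its exons overlap another annotated gene on the same strand, and it did not pass with quantile normalization of the libraries. TIMMDC1, which shares only the prefix and is an assembly factor of complex I, fell by 0.25 on the log2 scale (adjusted p = 0.00291).

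Levels per kilobase of transcript allow genes to be ordered by abundance. They rest on the length of a single annotated transcript per gene, and the form used in these cells was not determined, so the order is uncertain. In DMSO, TOMM6 was highest among the import genes, with 14142 normalized counts per kilobase, followed by TOMM7 with 7995, TOMM5 with 5176, TOMM34 with 4788 and TOMM20 with 4500. Among the carriers, SLC25A6 (9556) and SLC25A5 (9020) stood above SLC25A3 (2675) and SLC25A39 (2522). By normalized counts alone SLC25A3 stood first in DMSO, with a mean of 16007 against 13866 for SLC25A6 and 11790 for SLC25A5. SLC25A34 and SLC25A21 were at the low end, with 0.846 and 1.2 normalized counts per kilobase. In BRL-50481, TOMM6 had 8507 normalized counts per kilobase, SLC25A6 7732 and SLC25A5 7506.

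Among the nucleotide carriers, SLC25A4, the ADP/ATP carrier typical of heart and muscle (chromosome 4, 185143266 to 185150382), fell most. It had 1561, 1712 and 1734 normalized counts in DMSO and 819, 813 and 777 in BRL-50481, a log2FC of −1.05 (SE 0.0645, adjusted p = 3.6e-08). The widely expressed forms SLC25A5 and SLC25A6, which were more abundant, fell less. SLC25A5 had 11251, 12246 and 11872 normalized counts in DMSO and 9685, 9869 and 9879 in BRL-50481 (log2FC −0.26, adjusted p = 0.000287). SLC25A6 had 12078, 15163 and 14357 in DMSO and 10742, 11617 and 11298 in BRL-50481 (−0.30, adjusted p = 0.0027). All 3 ADP/ATP carriers of the table were thus lower.

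SLC25A3, the phosphate carrier that supplies ATP synthase, had 14688, 16788 and 16547 normalized counts in DMSO and 14131, 13937 and 14221 in BRL-50481 (log2FC −0.18, SE 0.0533, adjusted p = 0.0104). It did not pass without DMSO replicate 3 (adjusted p = 0.06). The calcium-regulated ATP-Mg/phosphate carriers behaved unequally. SLC25A25 had 1967, 2016 and 1983 normalized counts in DMSO and 1003, 1055 and 984 in BRL-50481 (log2FC −0.97, SE 0.0573, adjusted p = 2.63e-08), while SLC25A24 had 4727 ± 367 and 4725 ± 208, and SLC25A23 1969 ± 24.8 and 1934 ± 91.7 (SD, n = 3 each). The 95% intervals of the last 2 log2FCs were −0.13 to 0.13 and −0.15 to 0.094.

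The pyrimidine nucleotide carriers SLC25A33 and SLC25A36 bring UTP, CTP and related nucleotides into the matrix. SLC25A33 (chromosome 1, 9539465 to 9585173) had 492, 504 and 505 normalized counts in DMSO and 279.9, 244 and 223 in BRL-50481, a log2FC of −1.01 (SE 0.0974, adjusted p = 1.69e-06). SLC25A36, the more abundant of the pair, had 3531, 2921 and 3379 in DMSO and 3122, 3069 and 2779 in BRL-50481, values that overlap (log2FC −0.13, 95% interval −0.28 to 0.026, adjusted p = 0.14).

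Of the 7 cofactor carriers, 5 were lower (71.4%, against 29.8% of all genes) and none was higher. SLC25A32, the folate and FAD carrier and the most abundant of this group, changed from a mean of 3892 ± 42.3 to 2303 ± 39.7 normalized counts (SD, n = 3 each; log2FC −0.76, adjusted p = 5.01e-08). SLC25A16 (−0.77), the NAD carrier SLC25A51 (−0.35) and the peroxisomal carrier SLC25A17 (−0.28) were lower as well. Exons of SLC25A32 and SLC25A51, and of SLC25A29 among the amino acid carriers, lie over exons of further annotated genes of that strand, so their values are uncertain. The S-adenosylmethionine carrier SLC25A26 (0.034, 95% interval −0.13 to 0.20) and the coenzyme A carrier SLC25A42 (−0.17, 95% interval −0.46 to 0.12) did not pass.

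Of the 6 carriers of carboxylic acids, 2 were higher (33.3%, against 28.9% of all genes), 1 was lower (16.7%, against 29.8%) and 3 did not pass. The share higher was thus near that over all genes. SLC25A10, the dicarboxylate carrier, had 421, 483 and 462 normalized counts in DMSO and 549.7, 559 and 596 in BRL-50481 (log2FC 0.32, SE 0.0817, adjusted p = 0.00428), and its exons overlap another annotated gene on the same strand. SLC25A21, the oxodicarboxylate carrier, had the largest rise among the members (1.89, SE 0.383, adjusted p = 0.000882), but rests on few reads, with 5.95, 3.92 and 4.09 normalized counts in DMSO and 24.2, 18.1 and 17.4 in BRL-50481. SLC25A11, the oxoglutarate carrier, was lower (−0.33, adjusted p = 0.000501). SLC25A1, the citrate carrier that feeds fatty acid synthesis, had 1612 ± 154 and 1537 ± 45.3 normalized counts (SD, n = 3 each; log2FC −0.065, 95% interval −0.22 to 0.088). SLC25A34 and SLC25A35 had at most 13.1 and 120.5 normalized counts in any library, too few to show a small difference. Their log2FCs were 1.18 (95% interval −0.33 to 2.69) and −0.11 (95% interval −0.55 to 0.33). For SLC25A34 the interval covers a large rise as well as a small fall.

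Carriers of amino acids moved both ways. SLC25A22, a glutamate carrier, had 3160, 3682 and 3453 normalized counts in DMSO and 1856, 2034 and 1884 in BRL-50481 (log2FC −0.83, SE 0.0643, adjusted p = 2.43e-07). SLC25A13, an aspartate/glutamate carrier of the malate-aspartate shuttle, rose from 1202, 1148 and 1123 to 1395, 1478 and 1373 (0.29, SE 0.0608, adjusted p = 0.00114). Its relative SLC25A12 had 504, 499.6 and 485 in DMSO and 563, 507 and 528 in BRL-50481, without overlap, but did not pass (0.10, adjusted p = 0.279). The basic amino acid carrier SLC25A29 (−0.57), the carnitine carrier SLC25A20 (−0.37), the branched-chain amino acid carrier SLC25A44 (−0.27) and the glycine carrier SLC25A38 (−0.25) were lower. The last of these lost its call without BRL-50481 replicate 1 and without replicate 2 (adjusted p up to 0.054). The ornithine carrier SLC25A15 did not pass (−0.12, adjusted p = 0.146).

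**Figure D3:**
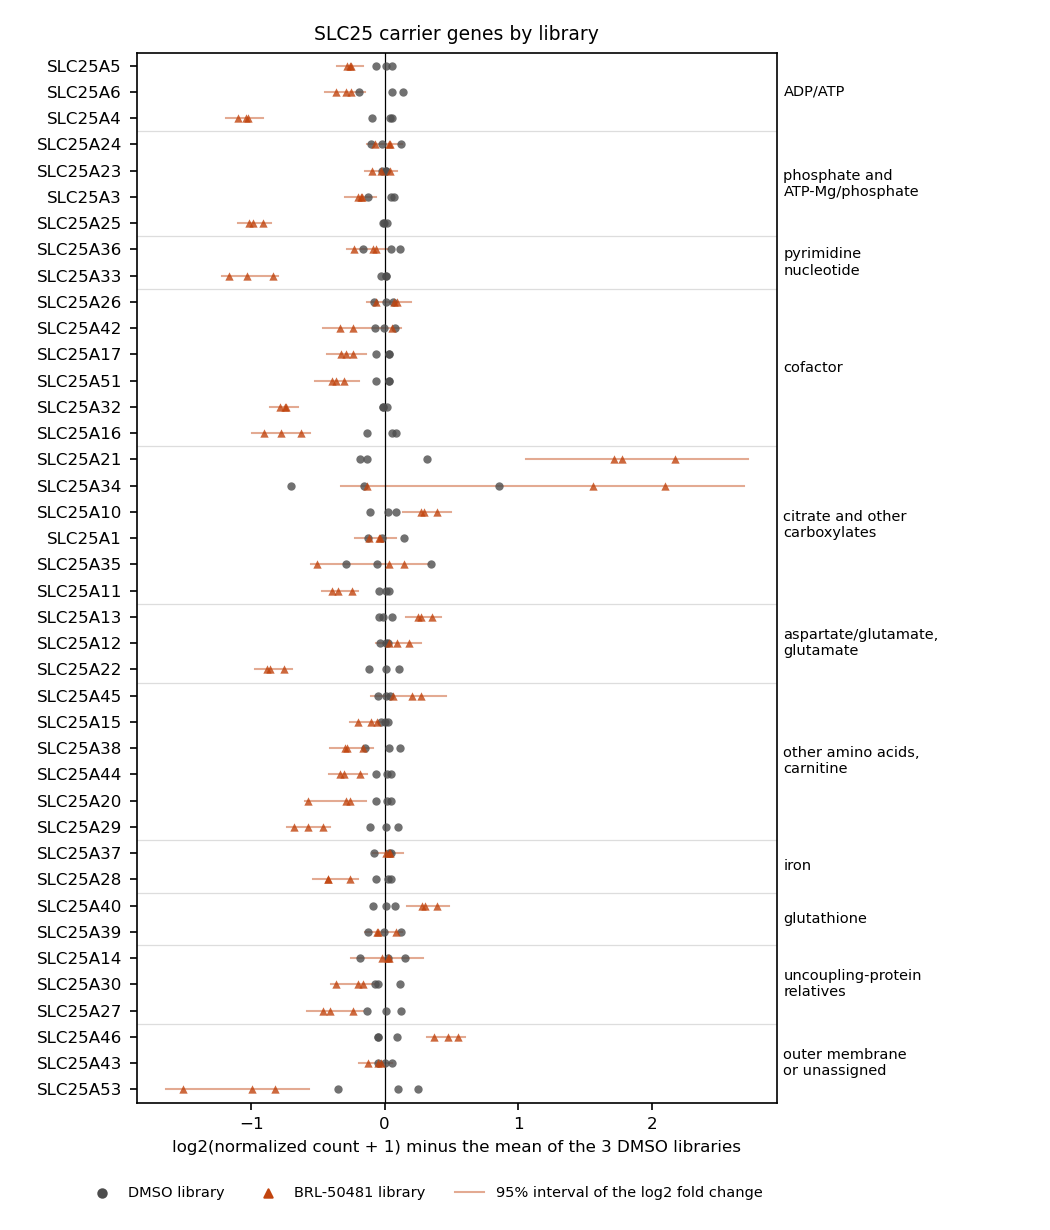
Value of the SLC25 genes named in the text in each library, as log2(normalized count + 1) minus the mean of the 3 DMSO libraries (x axis), with genes grouped by substrate (y axis). Circles are DMSO libraries, triangles BRL-50481 libraries, and lines the 95% interval of the log2FC from limma. Of the genes drawn, SLC25A53 lies farthest left and the weakly expressed SLC25A21 farthest right.

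The remaining carriers included 2 that rose. SLC25A46, a protein of the outer membrane with a role in mitochondrial fission and lipid transfer (chromosome 5, 110738136 to 110765161), had 1518, 1374 and 1374 normalized counts in DMSO and 2074, 1972 and 1840 in BRL-50481 (log2FC 0.46, SE 0.0652, adjusted p = 4.56e-05). SLC25A40, a glutathione carrier, had 714, 637 and 681 in DMSO and 886, 835 and 823 in BRL-50481 (0.32, SE 0.0718, adjusted p = 0.00168). The other glutathione carrier, SLC25A39, was more abundant and had 3987 ± 345 and 3958 ± 228 normalized counts (SD, n = 3 each). Of the iron carriers, SLC25A28 was lower (−0.37, adjusted p = 0.00137) and SLC25A37 did not pass (0.027, 95% interval −0.085 to 0.14). SLC25A53, an orphan carrier, had 70.4, 46.0 and 63.3 normalized counts in DMSO and 20.1, 29.2 and 33.0 in BRL-50481 (−1.11, SE 0.247, adjusted p = 0.00179). The uncoupling-protein relatives SLC25A27 and SLC25A30 were lower (−0.37 and −0.24), and SLC25A30 did not pass without BRL-50481 replicate 3 (adjusted p = 0.0829). SLC25A14 (0.017), SLC25A43 (−0.069) and SLC25A45 (0.18) did not pass.

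Because several of these genes come in forms with the same role, the balance within pairs was compared as the log2 ratio of their normalized counts in each library. The ratios of the groups did not overlap in 10 of 13 pairs (two-sided exact permutation test, p = 0.1 in each, the smallest that 3 libraries against 3 allow, and 0.13 after adjustment over the 13 pairs). No pair could therefore pass a threshold of 0.05. Among single genes tested, 32.3% lay below and 31.9% above without overlap. The share of separated ratios over other gene pairs was not computed, so whether the count is particular to these pairs is unknown. TIMM17A over TIMM17B had log2 ratios of 2.35, 2.13 and 2.35 in DMSO and 1.56, 1.28 and 1.42 in BRL-50481, and the ratio of the counts, which are not divided by transcript length, went from 4.83 to 2.68. SLC25A4 over SLC25A5 went from −2.85, −2.84 and −2.77 to −3.56, −3.60 and −3.67. SLC25A33 over SLC25A36 went from −2.84, −2.53 and −2.74 to −3.47, −3.65 and −3.63. In these 3 pairs the mean log2 ratio differed by 0.79 to 0.88 in size.

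The ratio of SLC25A24 over SLC25A25 rose from 1.38, 1.13 and 1.23 to 2.27, 2.20 and 2.19 on the log2 scale. In this pair the gene that fell, SLC25A25, is written second, so the sign follows from the order. TIMM8A over TIMM8B changed by −0.59, TOMM40 over TOMM40L by −0.44, SLC25A28 over SLC25A37 by −0.40, TIMM23 over TIMM23B by −0.36, SLC25A39 over SLC25A40 by −0.33 and SLC25A12 over SLC25A13 by −0.19. The ratios overlapped for SLC25A5 over SLC25A6, SLC25A23 over SLC25A24 and SLC25A14 over SLC25A30 (exact permutation test, p = 0.7, 0.7 and 0.2).

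**Figure D4:**
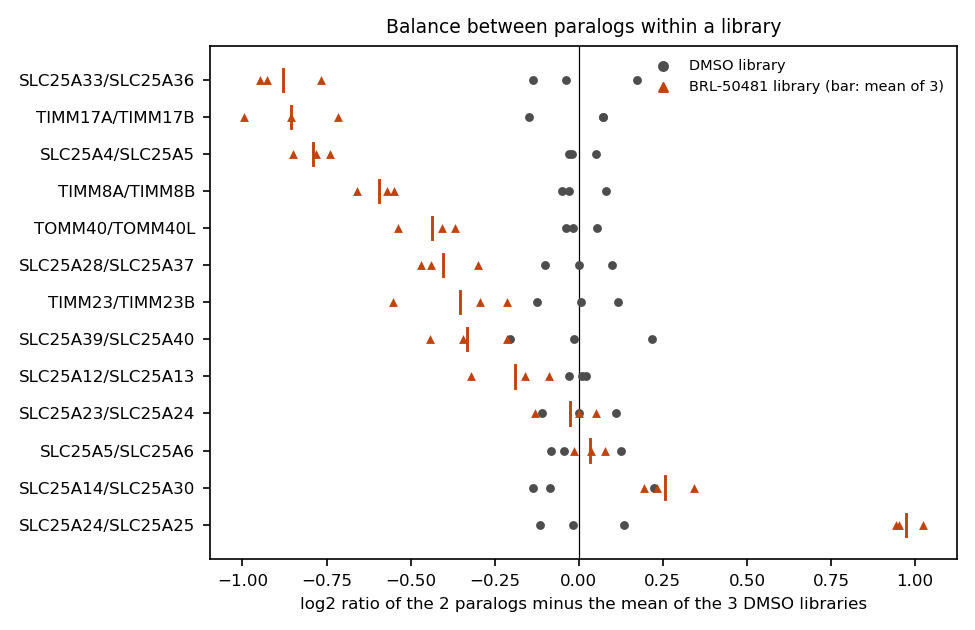
Log2 ratio of the normalized counts of 2 paralogs in each library minus the mean ratio of the 3 DMSO libraries (x axis) for 13 pairs (y axis). Circles are DMSO libraries, triangles BRL-50481 libraries and bars the mean of the 3 BRL-50481 libraries. SLC25A33/SLC25A36 and TIMM17A/TIMM17B lie farthest left and SLC25A24/SLC25A25 farthest right.

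Import also needs proteins without the TIMM or TOMM prefix. Of 21 such genes tested, 10 were lower (47.6%, against 29.8% of all genes), 3 were higher (14.3%, against 28.9%) and 8 did not pass, with a median log2FC of −0.19. The excess of lower genes depended on the fit. In limma without a trend fewer of them were lower, a share close to that over all genes in the same fit. GRPEL1, the nucleotide exchange factor of the import motor, had 3230, 3474 and 3475 normalized counts in DMSO and 2000, 2118 and 2106 in BRL-50481 (log2FC −0.71, SE 0.0541, adjusted p = 2.21e-07). CHCHD4, the oxidoreductase that folds small TIMs in the intermembrane space, had 1614, 1607 and 1857 in DMSO and 1069, 1076 and 1088 in BRL-50481 (−0.65, SE 0.0671, adjusted p = 3.19e-06). The motor chaperone HSPA9 (−0.28), the presequence protease subunit PMPCA (−0.50), the CHCHD4 partner GFER (−0.34) and the insertase OXA1L (−0.19) were lower as well. The J-domain protein DNAJC15 (0.55), the inner membrane peptidase IMMP1L (0.68) and the outer membrane protein MTX2 (0.17) were higher. With a library omitted, OXA1L and MTX2 passed in only 3 of 6 refits each (adjusted p up to 0.0696 and 0.173), and neither passed in limma without a trend. SAMM50, which inserts barrel proteins into the outer membrane, had a log2FC of 0.0044 (adjusted p = 0.962).

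Among 19 genes for other solute routes of mitochondria, 5 were lower, 4 were higher and 10 did not pass, with a median log2FC of −0.082. The shares of 26.3% lower and 21.1% higher were no larger than those over all genes (29.8% and 28.9%). The porin VDAC2 (−0.50, adjusted p = 4.56e-06), the pyruvate carrier subunit MPC1 (−0.33, adjusted p = 0.00102), the carrier relatives MTCH2 (−0.29) and MTCH1 (−0.25), and the serine transporter SFXN1 (−0.24) were lower. SFXN2 rose most, from 141, 126 and 162 normalized counts to 323, 375 and 301 (1.21, SE 0.124, adjusted p = 2.8e-06), ahead of SFXN3 (0.51) and UCP2 (0.20). UCP2 passed in 4 of 6 refits with a library omitted (adjusted p up to 0.0525).

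Of 14 genes that regulate mitochondrial biogenesis or the mitochondrial genome, 12 were lower (85.7%, against 29.8% of all genes), 1 was higher and 1 did not pass, with a median log2FC of −0.52. MYC, a transcription factor that also drives genes for ribosomes and metabolism, had 26024, 28761 and 28138 normalized counts in DMSO and 12098, 12446 and 12330 in BRL-50481 (log2FC −1.17, SE 0.0477, adjusted p = 1.63e-09). The coactivator PPARGC1B had 761, 601 and 594 in DMSO and 304, 343 and 317 in BRL-50481 (−1.01, SE 0.103, adjusted p = 2.7e-06). TFAM, which packages mitochondrial DNA, had 5679, 5556 and 5616 in DMSO and 3928, 3616 and 3639 in BRL-50481 (−0.59, SE 0.0498, adjusted p = 5.21e-07). PPARGC1A (−0.57), ESRRA (−0.60), NRF1 (−0.28) and GABPB1 (−0.37) were lower, and GABPA, the DNA-binding partner of GABPB1, was higher (0.36, SE 0.0723, adjusted p = 0.000875). These lists were chosen with earlier results of these data known, and whether their changes bear on those of the import genes was not tested.

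**Figure D5:**
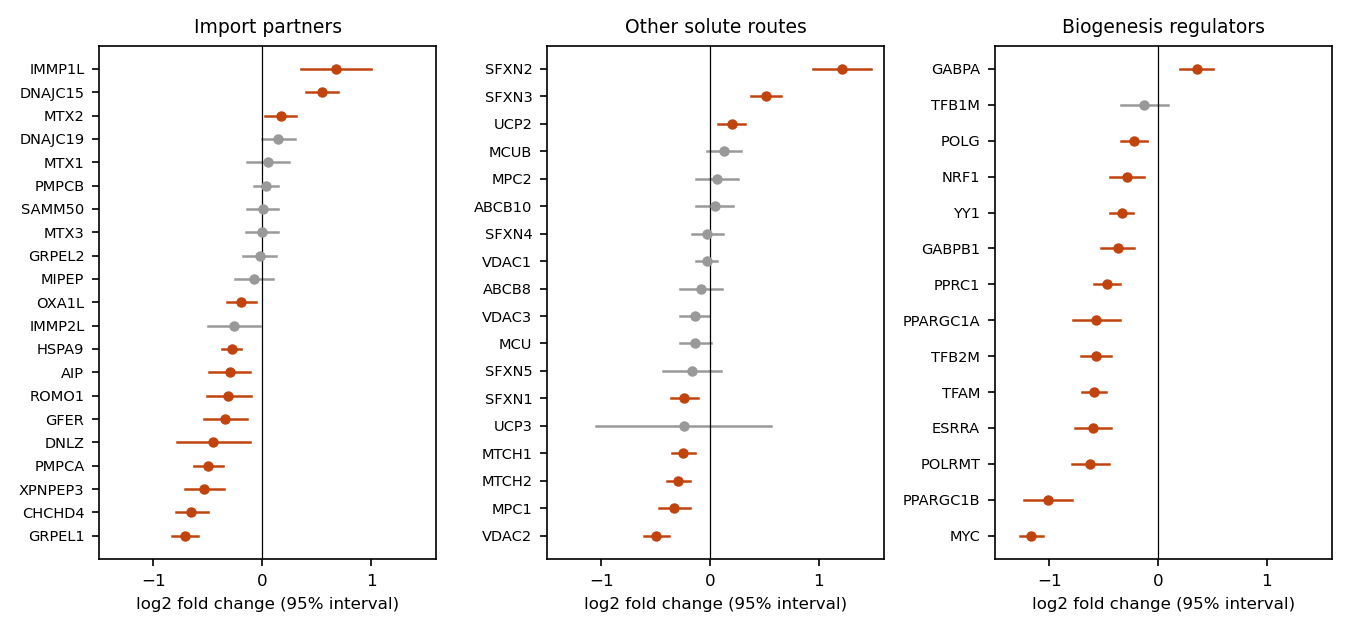
Log2 fold change of BRL-50481 over DMSO (x axis) with its 95% interval from limma for 21 import partners, 18 genes of other solute routes and 14 biogenesis regulators (y axis, current symbols). Orange genes passed an adjusted p-value of 0.05 and grey genes did not. In the right panel 12 of 14 genes lie left of 0 in orange, and GABPA lies right of it.

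Promoters were compared because genes of the import list moved together. RefSeq windows of 250 bases before and 50 after the start site (GRCh38.p14) were at hand for 57 of the 65 members. Among the import genes, 11 of 22 windows (50%) held the ETS motif CCGGAAG or its reverse complement CTTCCGG, against 7 of 35 carrier windows (20%) and 18.2% of 11591 windows of all genes tested. The import genes called lower held it in 9 of 18 windows (50%). They make up most of the 22 windows, so too few others remained to compare the share between calls. The E-box CACGTG, a palindrome that MYC can bind, was in 3 import windows (13.6%) and 6 carrier windows (17.1%), against 9.83% of all windows. The NRF1 core GCATGCGC or its reverse complement GCGCATGC was in 3 import windows (13.6%) and 0 carrier windows, against 5.2% of all windows. Motifs were counted on both strands, and a match describes letters, not binding.

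The 150 bases before the start site are shown for 3 import genes that fell and carry the ETS motif more than once, for TIMM10B, the import gene that rose, and for SLC25A46, the carrier with the largest rise among abundant ones. Capitals mark ETS motifs and the E-box that lie wholly inside the stretch, in the direction of transcription from 5′ to 3′. An E-box of TIMM10 and an NRF1 core of TIMM10B cross the start site and are not marked.
TIMM10 (chr11:57530755-57530904, minus strand): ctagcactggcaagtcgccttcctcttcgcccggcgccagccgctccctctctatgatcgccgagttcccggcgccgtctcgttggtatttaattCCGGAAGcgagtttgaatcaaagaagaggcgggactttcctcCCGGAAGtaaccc
TOMM6 (chr6:41787544-41787693, plus strand): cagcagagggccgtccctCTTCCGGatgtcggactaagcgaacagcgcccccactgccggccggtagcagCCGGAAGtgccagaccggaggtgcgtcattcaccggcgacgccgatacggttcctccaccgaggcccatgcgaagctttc
TOMM70A (chr3:100401090-100401239, minus strand): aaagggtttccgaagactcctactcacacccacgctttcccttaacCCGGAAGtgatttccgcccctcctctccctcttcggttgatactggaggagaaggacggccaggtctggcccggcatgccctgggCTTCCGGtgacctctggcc
TIMM10B (chr11:6481351-6481500, plus strand): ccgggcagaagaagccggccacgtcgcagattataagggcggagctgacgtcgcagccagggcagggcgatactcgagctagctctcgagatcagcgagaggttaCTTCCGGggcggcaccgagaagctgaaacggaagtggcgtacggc
SLC25A46 (chr5:110738857-110739006, plus strand): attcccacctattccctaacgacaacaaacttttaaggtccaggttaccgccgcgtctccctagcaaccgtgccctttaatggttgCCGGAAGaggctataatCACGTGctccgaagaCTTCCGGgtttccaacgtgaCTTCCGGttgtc
TIMM10, TOMM6 and TOMM70A hold 2 ETS motifs each in this stretch, TIMM10B holds 1, and SLC25A46 holds 3 beside 1 E-box. The first 3 were picked for the motif, so whether it goes with the direction of change was not tested.

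Transcript length differed between the lists. The median transcript length was 1806 bases for import genes, 2926 for carriers and 3173 over all genes tested. With length and GC content fitted and removed in each library by loess, 20 import genes were lower against 2 higher (median log2FC −0.38), and 24 carriers were lower and 5 higher, with a median of −0.24. Of the 14738 genes with a known length, 37.2% were then lower and 28.5% higher, with a median of −0.036. TIMM17B passed as higher after this correction (0.17, adjusted p = 0.017), while SLC25A36 (−0.27, adjusted p = 9.07e-05), SLC25A15 (−0.19, adjusted p = 0.00689) and SLC25A24 (−0.10, adjusted p = 0.031) passed as lower.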

How the data were processed

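According to the Methods and the submitters' processing notes, the authors aligned reads to hg38 with STAR 2.7.1a, assigned them to UCSC gene models with htseq-count (reverse strand), and normalized the counts with DESeq2 1.28. The deposited values are thus a normalized signal, reads over a library's size factor. Other columns deposited by the authors hold DESeq2's log2 fold changes, Wald scores and p-values, and were not used.

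Genes that reached 4 normalized counts in 3 or more of the 6 libraries were kept (15246 of 15651). Log2 values with a pseudocount of 1 were fitted with limma 3.58.1 in R 4.3.3 (eBayes with a trend, 2 groups of 3, no covariate), with calls made below 0.05 after Benjamini-Hochberg adjustment, so fold changes of low genes are understated. The series text calls the libraries biological replicates but names no separate cultures, so p-values may measure technical spread only. Members and lists were chosen with earlier results of these data known. Every member and list gene may be named (1 carrier and 1 gene of the other solute routes are counted but not reported here), with values per library for the 5 largest called changes in each direction, the most abundant gene of a role and the paralog pairs. Motifs and the promoters shown were chosen after the values were seen. Positions and lengths came from GENCODE release 44 (hg38), matched for 96.5% of genes, and promoters from RefSeq. On simulated counts for this comparison (15246 genes, 200 changed), 100% of log2 changes of 1 and 92% of those of 0.5 were found, and 11 of 15046 unchanged genes were called. The simulated libraries were independent, with the same dispersion rule in both groups. Changes were placed only in well-expressed genes, and far fewer genes changed than were called here. These rates therefore do not carry over to the uneven DMSO libraries or to low genes. The alternatives were other pseudocounts, filters and scalings, limma without a trend, a replicate block, a loess correction (span 0.5) for length and GC content, and leaving out each library. Python 3.11.15, pandas 2.3.3 and matplotlib 3.10.9 were used.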

Additional observations from a re-analysis of the deposited data

How the results depend on the processing

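Of the 65 members, 52 kept the same call (lower, higher or not called) under all alternatives run that tested them, and 13 did not under at least 1. Members with values near 0 that were not called, such as TOMM40L, SLC25A14 and SLC25A23, changed sign under some. With quantile normalization 0 import genes were higher (limma), and with the correction for length and GC content 2 were. That correction also turned SLC25A24 to −0.10 (adjusted p = 0.031) and MTX3 to −0.19 (adjusted p = 0.00252). Without a trend in limma, 6 import partners were lower in place of 10. Their share was then close to the share of all genes called lower under the same setting. The excess of lower genes among import partners was thus not kept. The carrier median was −0.24 with a filter at a mean of 20 normalized counts, with the length and GC correction and without DMSO replicate 1. The filter on the mean took out SLC25A21 (log2 fold change 1.89) and SLC25A34 (1.18), the carriers with the largest rises, so the middle value was a lower one. In the other cases the cause was not tested.

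With each library left out in turn, 18 to 20 import genes were lower and 1 higher, 20 to 22 carriers lower and 5 to 6 higher, and 7 to 11 import partners lower, while the medians were −0.47 to −0.38 for import genes and −0.24 to −0.18 for carriers. The difference between the groups in the log2 ratio of SLC25A5 over SLC25A6 ranged from −0.0045 to 0.10 and that of SLC25A23 over SLC25A24 from −0.084 to 0.029, with the sign of the difference reversing without DMSO replicate 2 and, for the latter, also without BRL-50481 replicate 1 (0.022). The labels give same-numbered libraries a common number and do not state whether they were handled together. Their deviations from the group means correlated at 0.1212, 0.1040 and 0.0514, and each DMSO library correlated best with its own number. These low correlations do not settle whether such libraries are paired. With the number as a replicate block, 20 import genes were lower and 1 higher, and 21 carriers lower and 5 higher, and 4440 genes in all were higher and 4589 lower. The count-based tests planned for the reads behind the normalized counts were not run. SLC25A1 and SLC25A36, which did not pass, were called lower without DMSO replicate 1 (log2 fold change −0.13) and without DMSO replicate 2 (−0.21), respectively, and SLC25A34 was called higher without BRL-50481 replicate 2 (1.83). Low counts limit SLC25A21, SLC25A34, SLC25A35 and SLC25A53.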
